A study of Drosophila melanogaster with 2 samples.

Results

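The aminoacyl-tRNA synthetase genes described here are the 21 genes whose symbol in the deposited table of 14794 genes starts with Aats-, the older fly prefix for these enzymes. A member was called mitochondrial if its deposited symbol or its symbol in the current annotation ends in -m, and cytosolic otherwise, which gave 6 mitochondrial and 15 cytosolic members. No expression value was used in this choice. Another 15 synthetase genes stand in the table under other symbols, and they are used below as partners and for comparison, so that the Aats- genes are 21 of 36 synthetase genes found.

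RNA-Seq had been done on poly(A) RNA of whole male flies, collected 1 to 3 days after eclosion, in 2 libraries. The mutant library came from heph2 homozygotes, which carry a P element in hephaestus (heph), the gene of the fly polypyrimidine tract-binding protein, an RNA-binding regulator of splicing needed for sperm maturation. The control library came from heph2/TM3 males, which carry the same heph2 chromosome over the TM3 balancer chromosome, so that both libraries come from carriers of the allele. Each genotype had 1 library, so no difference below has a replicate check and no p-value is given.

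Aminoacyl-tRNA synthetases join each amino acid to its transfer RNA (tRNA) and so supply the ribosome with its charged substrates. Animal cells make proteins both in the cytosol and inside mitochondria, and most amino acids have a nuclear gene for each place, while some genes serve both. The enzymes fall into class I and class II by the fold of their catalytic domain, and several cytosolic ones are held together in a multisynthetase complex by the scaffold proteins AIMP1, AIMP2 and AIMP3.

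Levels are in FPKM, a unit per transcript length, in which the levels of different genes of 1 library can be compared. The depth that the authors divided by is not given in the sources used here, and scaling on mapped reads in its place lowered every log2 ratio by the same amount, a shift of -0.28, so directions between the libraries depend on this choice. Differences are given as log2 of heph2 FPKM over control FPKM, so that a negative value means a lower level in heph2. A gene was compared if its FPKM averaged 1 or more and neither library listed it at 0, and all 21 Aats- genes were among the 11962 genes that met this. From the steps between low FPKM values, the reads behind an Aats- gene were estimated at 178 to 2790 in heph2 and 299 to 4719 in the control. The 95% intervals given in brackets are exact binomial (Clopper-Pearson) intervals of the log2 ratio from these reads and cover counting error only.

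In the deposited FPKM none of the 21 Aats- genes reached a 2-fold or a 1.5-fold difference, while 5.23% of all genes compared reached 2-fold (2.79% higher and 2.44% lower in heph2) and 16.4% reached 1.5-fold (9.16% higher and 7.26% lower). No Aats- gene reached 2-fold under the other scalings either, but 5 of 21 were lower by at least 1.5-fold when scaled on mapped reads or to TPM, where 23.4% and 23.6% of all genes reached 1.5-fold, and 11 of 21 when centred on ribosomal protein genes, where 35.9% of all genes did. The median log2 ratio of the 21 genes was -0.14, which is 90.5% of the control level, and their ratios lay between -0.42 and 0.20. The median of all genes compared was 0.01, and their middle 50% lay between -0.24 and 0.29. In the deposited FPKM, 17 Aats- genes were lower in heph2 and 4 were higher, namely Aats-phe, Aats-trp, Aats-met and Aats-arg, and all 4 came out below 0 when the libraries were scaled on mapped reads, on ribosomal protein genes or to TPM, and Aats-arg also when centred on the median of all genes. For comparison, 48.5% of all genes compared were lower in heph2 and 51.5% were higher in the deposited FPKM. The share of all genes that were lower was 74.4% scaled on mapped reads, 74.7% in TPM and 85.0% centred on ribosomal protein genes, so that most genes share the lower direction under those scalings.

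The summed level of the 21 genes was 387 FPKM in heph2 and 421 FPKM in the control, or 92.1% of the control sum. The order of the genes by level was nearly the same in both libraries, with a Spearman correlation of 0.99 over the 21 genes, which are not independent replicates. Aats-asp, Aats-trp and Aats-leu held the same place in both orders, as the highest, the second and the lowest member. The plot of levels by gene shows the spread of the family and the small distance between the libraries for each gene.

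**Figure D1:**
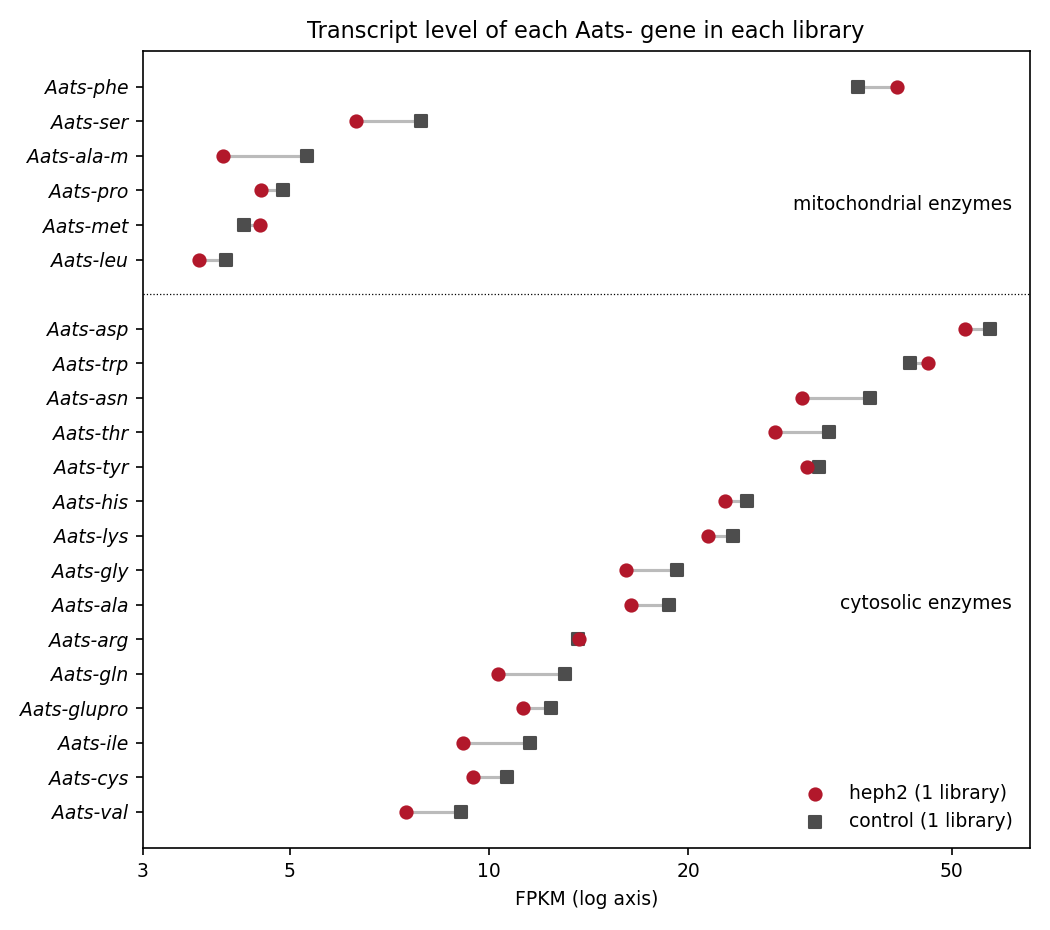
Transcript level of each Aats- gene in FPKM on a log axis, with a circle for the heph2 library and a square for the control library (1 library each, so there are no error bars). Mitochondrial enzymes stand above the dotted line and cytosolic enzymes below it; the levels ran from 3.65 to 52.3 FPKM in heph2 and from 4.01 to 57.1 FPKM in the control.

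The mitochondrial members formed a low group with 1 exception. Aats-phe, the mitochondrial phenylalanine enzyme (chromosome arm 2R, 9855852 to 9857407 in FlyBase r5.44), had 41.4 FPKM in heph2 against 36.04 FPKM in the control, a log2 ratio of 0.20 [0.11, 0.29]. It was the highest ratio of the 21 genes and it lay within the middle 50% of all genes. The other 5 mitochondrial members had 3.65 to 6.29 FPKM in heph2 and 4.01 to 7.89 FPKM in the control, so that Aats-phe alone made up most of the mitochondrial sum of 64.3 FPKM in heph2 and 62.4 FPKM in the control. Without Aats-phe the sums were 22.9 FPKM in heph2 and 26.4 FPKM in the control.

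The lowest ratio of the family belonged to Aats-ala-m, the mitochondrial alanine enzyme, with 3.97 FPKM in heph2 against 5.31 FPKM in the control. Its log2 ratio was -0.42 [-0.60, -0.24], which is 74.8% of the control level, and 12.8% of all genes compared had a lower ratio. It lies on chromosome arm 3L, and its locus entry, 5135055 to 5145447, is shared by 4 genes. Aats-ser, the mitochondrial serine enzyme, had 6.29 FPKM in heph2 against 7.89 FPKM in the control, a log2 ratio of -0.33 [-0.52, -0.14]. Of its exonic bases, 13.9% overlap exons of Nagk on the other strand, and no source used here says that reads were assigned by strand, so reads of such overlaps cannot be assigned to 1 gene with certainty.

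For the remaining 3 mitochondrial members the counting interval included equal levels. Aats-pro, the proline enzyme, had 4.52 FPKM in heph2 against 4.89 FPKM in the control, a log2 ratio of -0.11 [-0.39, 0.15]. Aats-met, the methionine enzyme, had 4.50 FPKM in heph2 against 4.27 FPKM in the control, with a ratio of 0.08 [-0.14, 0.30]. Aats-leu, the leucine enzyme, had 3.65 FPKM in heph2 against 4.01 FPKM in the control, with a ratio of -0.14 [-0.35, 0.07]. These are also the genes with the fewest reads of the family, and their intervals were the widest.

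Among the cytosolic members, Aats-asp, the aspartate enzyme, was the most abundant transcript in both libraries, with 52.3 FPKM in heph2 against 57.1 FPKM in the control. Its log2 ratio was -0.13 [-0.20, -0.06]. The gene lies on chromosome arm 2R from 8767824 to 8770675, and 63.9% of its exonic bases overlap the antisense RNA gene asRNA:CR45141, so that its level and ratio may hold reads of both. Aats-trp, the tryptophan enzyme (3R, 5089539 to 5092670), followed with 46.0 FPKM in heph2 against 43.3 FPKM in the control, the only cytosolic gene other than Aats-arg that was not lower in heph2 in the deposited FPKM. Its ratio was 0.09 [0.01, 0.17], and it was below 0 when the libraries were scaled on mapped reads, on ribosomal protein genes or to TPM.

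A group of 5 cytosolic genes at middle to high level followed. Aats-asn, the asparagine enzyme (2L, 19129864 to 19131952), had 29.7 FPKM in heph2 against 37.6 FPKM in the control, a log2 ratio of -0.34 [-0.42, -0.26]. Aats-thr, the threonine enzyme, had 27.0 FPKM in heph2 against 32.7 FPKM in the control, with a ratio of -0.27 [-0.36, -0.19]. These are differences of larger size than those of the other genes at this level. Aats-tyr, the tyrosine enzyme, had 30.2 FPKM in heph2 against 31.5 FPKM in the control, and its interval of -0.16 to 0.03 included 0. Aats-his had 22.7 FPKM in heph2 against 24.5 FPKM in the control, a ratio of -0.11. Aats-lys had 21.4 FPKM in heph2 against 23.3 FPKM in the control, a ratio of -0.12. The histidine and lysine enzymes are each encoded by a gene without a separate mitochondrial partner in the current annotation, and their intervals ended at -0.01 and -0.02, close to equal levels. Of the exonic bases of Aats-his, 8.91% are shared with Bx on the same strand.

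The other 8 cytosolic genes lay between 7.49 and 16.4 FPKM in heph2 and between 9.08 and 19.3 FPKM in the control. Aats-gly, the glycine enzyme, had 16.1 FPKM in heph2 against 19.3 FPKM in the control, a log2 ratio of -0.26. Aats-ala, the cytosolic alanine enzyme, had 16.4 FPKM in heph2 against 18.7 FPKM in the control, a ratio of -0.19. The counting intervals of both lay wholly below 0. Aats-arg, the arginine enzyme, was the gene nearest to equal levels, with 13.7 FPKM in each library and a ratio of 0.00 [-0.13, 0.13]. Aats-gln, the glutamine enzyme, had 10.3 FPKM in heph2 against 13.0 FPKM in the control, a ratio of -0.33.

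Aats-glupro encodes the fused enzyme for glutamate and proline, the longest protein of the family with 1714 residues, and it lies on 3R from 19777852 to 19784117. It had 11.2 FPKM in heph2 against 12.4 FPKM in the control, a log2 ratio of -0.14 [-0.24, -0.05], and 16.6% of its exonic bases overlap an antisense RNA gene. Aats-ile, the isoleucine enzyme (3L, 22281762 to 22285918), had 9.12 FPKM in heph2 against 11.5 FPKM in the control, and its ratio of -0.34 [-0.45, -0.23] was the lowest of the cytosolic genes, with Aats-asn next to it within counting error. Aats-cys, the cysteine enzyme, had 9.45 FPKM in heph2 against 10.7 FPKM in the control, a ratio of -0.17. Aats-val, the valine enzyme, was the lowest cytosolic transcript, with 7.49 FPKM in heph2 against 9.08 FPKM in the control and a ratio of -0.28. Its level was still above the 5 low mitochondrial members in each library.

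By counting error alone, the interval lay wholly below 0 for 14 of the 21 genes, wholly above 0 for Aats-phe and Aats-trp, and included 0 for 5 genes, namely Aats-arg, Aats-tyr, Aats-pro, Aats-met and Aats-leu. The intervals reached from 0.07 to 0.27 to either side. They do not hold the spread between flies or between library preparations, which 1 library per genotype cannot give.

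**Figure D2:**
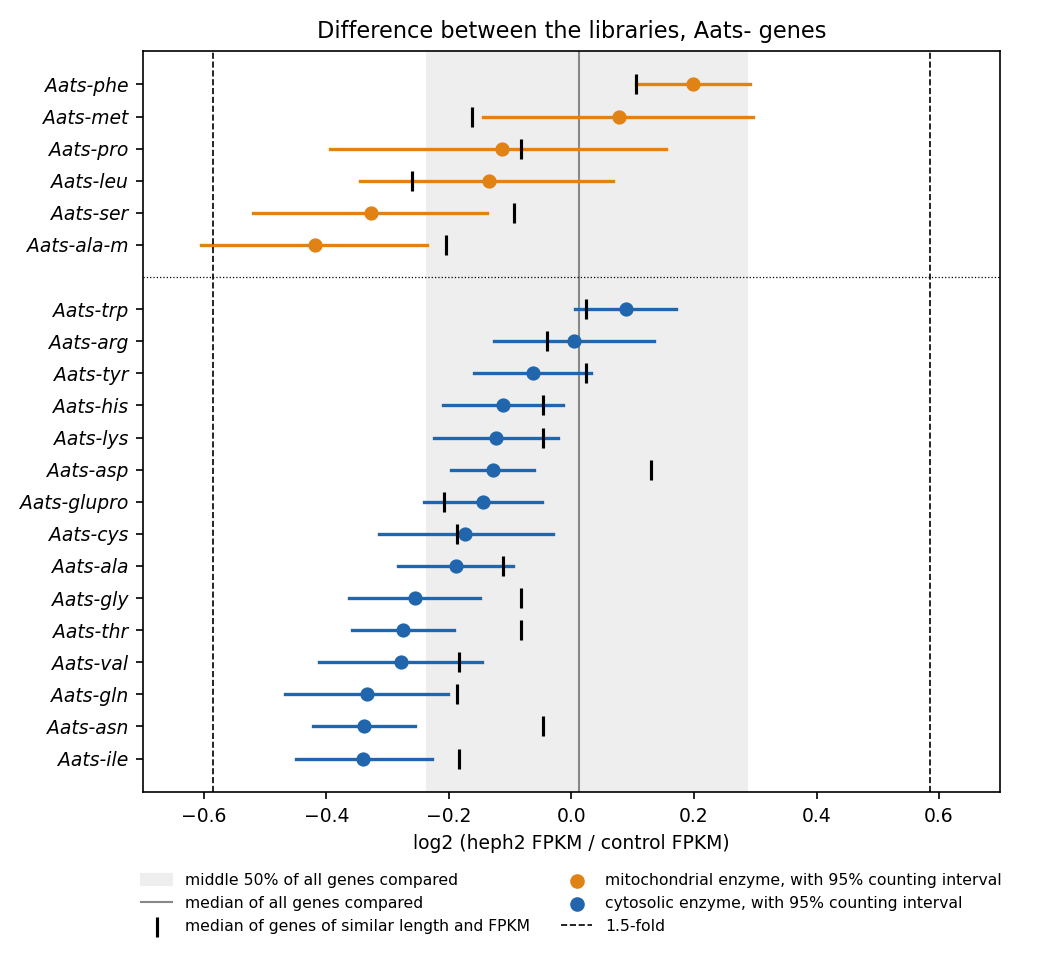
Log2 ratio of heph2 FPKM over control FPKM for each Aats- gene, in orange for mitochondrial and blue for cytosolic enzymes, with bars for the 95% counting interval (counting error only). The grey band is the middle 50% of all genes compared, from -0.24 to 0.29, the dashed lines mark 1.5-fold, and the black ticks mark the median of genes of similar length and level. No gene's ratio reached 1.5-fold, and 17 of the 21 lay below 0 in these deposited units. All 21 did when scaled on mapped reads, on ribosomal protein genes or to TPM, as did 74.4% to 85.0% of all genes.

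Set by compartment, the 6 mitochondrial genes had a median log2 ratio of -0.12, with 4 of 6 lower in heph2, and the 15 cytosolic genes had a median of -0.17, with 13 of 15 lower. All 6 and all 15 were lower when scaled on mapped reads, on ribosomal protein genes or to TPM, where 74.4% to 85.0% of all genes were lower. The difference of the medians, mitochondrial minus cytosolic, was 0.05. This is smaller than the spread within either compartment, where the ratios covered -0.42 to 0.20 in the mitochondrial genes and -0.34 to 0.09 in the cytosolic genes. The levels differed far more than the ratios. The median level of the mitochondrial genes was 4.51 FPKM in heph2 and 5.10 FPKM in the control, and that of the cytosolic genes was 16.4 FPKM in heph2 and 19.3 FPKM in the control. The difference of the medians grew to 0.22 among genes alone in their locus entry and to 0.36 at a minimum mean FPKM of 10, where Aats-phe was the only mitochondrial gene left.

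Transcript length moved with the ratio. Over all genes with a known length, the median log2 ratio was 0.36 in the shortest and -0.23 in the longest of 10 length bins, and the Spearman correlation of length with the ratio was -0.45 over 11397 genes. Over the 21 Aats- genes it was -0.65. The genes are not independent, and they share both libraries. The 6 Aats- genes with transcripts of over 3000 nucleotides were all lower in heph2, with a median of -0.23, against 78.7% lower and a median of -0.20 for all genes of that length class. The 10 of over 2000 up to 3000 nucleotides had a median of -0.21, against -0.09 for all genes of the class. The 5 of up to 2000 nucleotides had a median of -0.06, against 0.16 for all genes of the class. In each class the median of the Aats- genes was thus below that of all genes, by less in the longest class than in the others. Lengths in the shortest class are not matched, however. Its 5 Aats- genes have transcripts of 1513 to 1976 nucleotides, while all genes of the class have a median of 1064 nucleotides. Relative to the median of genes of similar length and mean FPKM, the Aats- medians were -0.03, -0.11 and -0.09 from the shortest to the longest class. On that scale the shortest class lay nearest to 0.

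Among the 5282 genes with transcripts in the length range of the Aats- genes, 1513 to 4278 nucleotides, 61.2% were lower in heph2, 9.54% reached 1.5-fold, and the log2 ratios had a median of -0.08. Among the 3582 of these whose mean FPKM was also in the range of the Aats- genes, the median was -0.08, 64.1% were lower, 7.23% reached 1.5-fold and 2.23% reached 2-fold. Relative to the median of genes of similar length and mean FPKM, 14 Aats- genes were lower and 7 were higher, and the median was -0.08. On this relative scale the 6 mitochondrial genes had a median of 0.03 and 3 of them were lower, while the 15 cytosolic genes had a median of -0.09 and 11 were lower. The counting interval excluded the median of similar genes for 10 of the 21.

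The genes farthest below similar genes were Aats-asn at -0.29, Aats-asp at -0.26 and Aats-ser at -0.23 on the relative log2 scale. Aats-asp stood in the middle of the family by its plain ratio and at the lower end on this scale, as its length and level bin had a median ratio of 0.13. Aats-met at 0.24 and Aats-leu at 0.12 were farthest above similar genes. The correlation of length with the relative ratio over the 21 genes was -0.13. A weaker correlation is built into this scale, which takes out the median of each length bin. It was -0.52 over the other 15 synthetase genes and -0.38 over all 36, so that an order by length remained there.

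**Figure D3:**
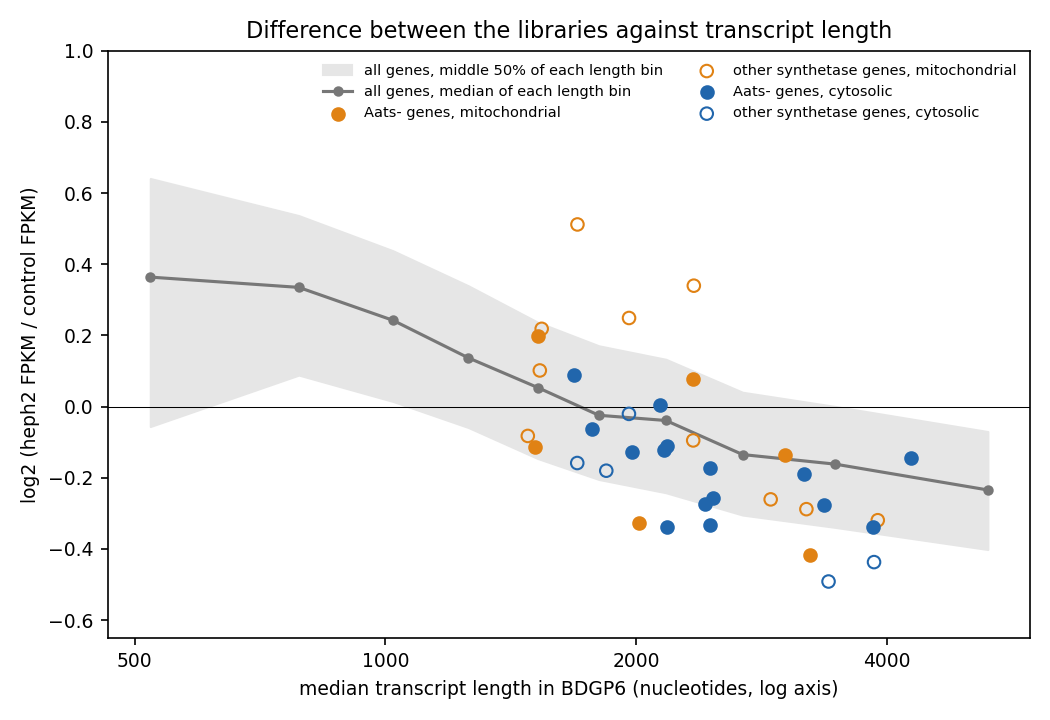
Log2 ratio of heph2 FPKM over control FPKM against median transcript length on a log axis, for Aats- genes (filled) and other synthetase genes (open), with mitochondrial enzymes in orange and cytosolic enzymes in blue. The grey line and band give the median and the middle 50% of all genes in 10 length bins, whose medians ran from 0.36 at the short end to -0.23 at the long end; the Aats- genes lie around and below this line.

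The structural class and the multisynthetase complex were also compared. Of the Aats- genes, 9 encode class I enzymes, 11 encode class II enzymes, and Aats-glupro holds a domain of each. The class I genes had a median log2 ratio of -0.14 and 6 of 9 were lower in heph2, and the class II genes had a median of -0.19 and 10 of 11 were lower, with Aats-phe as the exception. All genes of both classes were lower when scaled on mapped reads, on ribosomal protein genes or to TPM, as were 74.4% to 85.0% of all genes. Against genes matched on length and level, the class I genes had a median of 0.01 and 4 of 9 were lower, and the class II genes had a median of -0.17 and 10 of 11 were lower. The 6 Aats- genes of the multisynthetase complex (Aats-arg, Aats-asp, Aats-gln, Aats-glupro, Aats-ile and Aats-lys) had a median of -0.14, against -0.19 for the 9 other cytosolic genes. These ranges overlapped almost entirely.

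Cytosolic genes for which the current annotation has no mitochondrial partner were those for glutamine, glycine, histidine, lysine and threonine. In the deposited FPKM all 5 were lower in heph2, with log2 ratios of -0.33 to -0.11 and a median of -0.26. The other 10 cytosolic genes had a median of -0.16, with 8 lower, and 48.5% of all genes were lower. Scaled on mapped reads or on ribosomal protein genes, the other 10 were all lower too. Against genes matched on length and level all 5 were still lower, with a median of -0.15. The other 10 had a median of -0.08 there, with 6 lower, and 49.99% of all genes were lower. The counting intervals of Aats-his and Aats-lys included the median of similar genes, which was -0.05 for both. Glycyl- and lysyl-tRNA synthetases are known in animals to be made for both compartments from the same gene. The 11 Aats- genes on chromosome 3, which carries heph and in the control the TM3 balancer, had a median of -0.14, and the 10 on other chromosomes had a median of -0.15. At a minimum mean FPKM of 5, which leaves out 4 low mitochondrial genes on chromosome 3, the medians were -0.26 on and -0.15 off chromosome 3. By arm, the medians were -0.27 for 3 genes on 2L, -0.20 for 6 genes on 3L, -0.15 for 4 genes on 2R, -0.14 for 5 genes on 3R and -0.11 for 3 genes on X. All Aats- genes of 2L and 3L were lower in heph2, where 46.7% and 49.98% of all genes of these arms were. Matched on length and level, 3 of 3 on 2L and 5 of 6 on 3L were lower, against 51.1% and 52.8% of all genes. On 3L the counting intervals of Aats-leu, Aats-pro and Aats-tyr included 0. Of the synthetase genes under other symbols on 3L, CG4573 and CG7441 were higher in heph2, and CG5414 and CG5660 were lower.

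The other 15 synthetase genes, 10 mitochondrial and 5 cytosolic, covered a wider range. Their median log2 ratio was -0.10, 10 of 15 were lower in heph2, and none reached 1.5-fold. The 10 mitochondrial genes had a median of 0.01 with 5 lower, and the 5 cytosolic genes a median of -0.18 with all 5 lower. Matched on length and level, the 15 genes had a median of -0.0004 with 8 lower, unlike the Aats- genes with -0.08 and 14 of 21 lower. Scaled on mapped reads or to TPM, 13 of the 15 were lower, and centred on ribosomal protein genes 14 were. Of all genes compared, 74.4% to 85.0% were lower under these scalings. The 2 lowest were both cytosolic members of the complex. MetRS (CG15100), the cytosolic methionine enzyme, had 13.5 FPKM in heph2 against 19.0 FPKM in the control, a ratio of -0.49, and LeuRS (CG33123), the cytosolic leucine enzyme, had 7.60 FPKM in heph2 against 10.3 FPKM in the control, a ratio of -0.44. The 2 highest were both mitochondrial. GluRS-m (CG4573), the glutamate enzyme, had 4.01 FPKM in heph2 against 2.81 FPKM in the control, a ratio of 0.51 [0.22, 0.81], and TrpRS-m (CG7441), the tryptophan enzyme, had 182 FPKM in heph2 against 144 FPKM in the control, a ratio of 0.34. Centred on ribosomal protein genes, the ratio of TrpRS-m was below 0 and that of GluRS-m was not.

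The Aats- genes hold only a mitochondrial gene for phenylalanine, since the cytosolic enzyme is made of separate alpha and beta subunits listed under other symbols. The alpha subunit gene (CG2263) had 19.8 FPKM in heph2 against 22.1 FPKM in the control, and the beta subunit gene (CG5706) had 16.6 FPKM in heph2 against 16.9 FPKM in the control. Aats-phe was above both subunit genes in each library. Over all 36 synthetase genes, 9 of 16 mitochondrial genes were lower in heph2 with a median of -0.09, and 18 of 20 cytosolic genes were lower with a median of -0.18. The mitochondrial count was 14 of 16 when scaled on mapped reads or to TPM and 15 of 16 when centred on ribosomal protein genes, and the cytosolic count was then 20 of 20. Under these scalings 74.4% to 85.0% of all genes were lower. Matched on length and level, the 16 mitochondrial genes had a median of 0.08 with 7 lower, and the 20 cytosolic genes a median of -0.11 with 15 lower. The mitochondrial set includes Slimp (CG31133), a relative of the serine enzyme that does not charge tRNA in flies.

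For 14 amino acids a mitochondrial and a cytosolic gene could be set side by side, with Aats-glupro used for both glutamate and proline. The cytosolic gene had the higher level in 11 of 14 in each library, and the exceptions were valine, tryptophan and cysteine. The gap was widest among these exceptions for cysteine, where CysRS-m (CG8257) had 105 FPKM in heph2 and 88.6 FPKM in the control, while Aats-cys had 9.45 FPKM in heph2 and 10.7 FPKM in the control. For CysRS-m, 14.3% of exonic bases overlap exons of CG13016 on the other strand. For tryptophan, TrpRS-m was 3.96 times the level of Aats-trp in heph2 and 3.33 times in the control, although Aats-trp was itself the second highest Aats- gene.

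The mitochondrial gene had the higher log2 ratio for 9 amino acids and the lower ratio for 5, a split that a common scaling of the library leaves as it is. The median difference, mitochondrial minus cytosolic, was 0.16, with a range from -0.23 for alanine to 0.66 for glutamate. The value for glutamate rests on GluRS-m, with an estimated 181 reads in heph2 and 196 reads in the control. Its locus entry is shared by 2 genes, and 5.59% of its exonic bases overlap exons of Serinc on the other strand. Against genes matched on length and level, the mitochondrial minus cytosolic difference had a median of 0.14 and was above 0 for 10 of 14. In 2 amino acids both genes are Aats- genes. For alanine, Aats-ala-m was at 0.243 of the level of Aats-ala in heph2 and at 0.284 in the control. For proline, Aats-pro was at 0.402 of the level of Aats-glupro in heph2 and at 0.394 in the control.

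**Figure D4:**
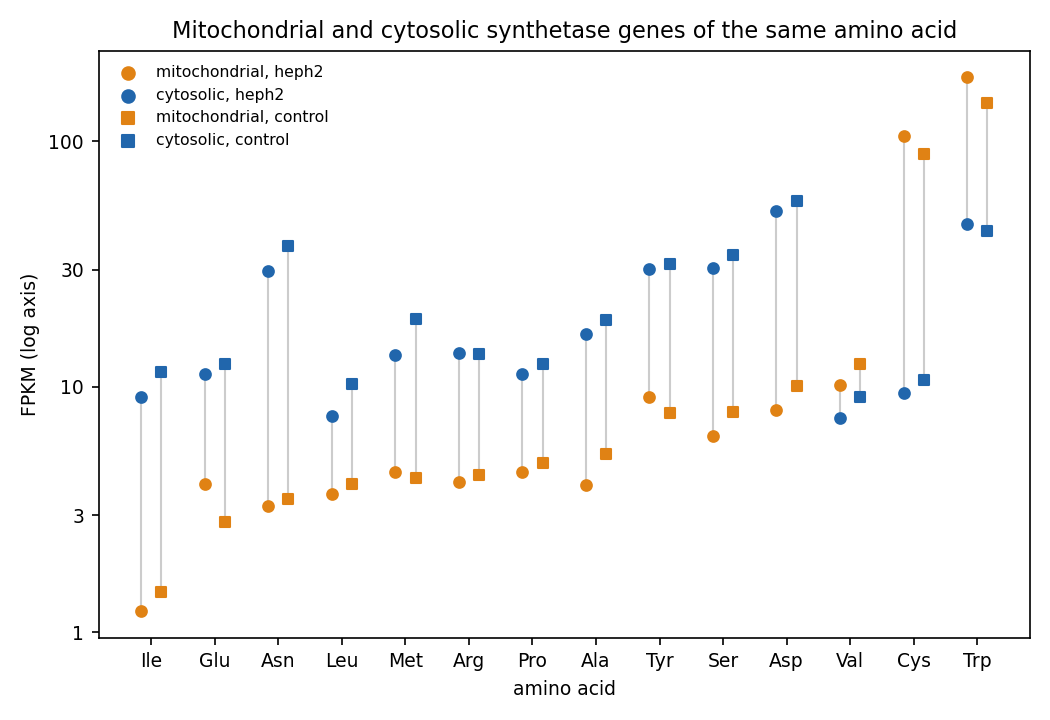
FPKM on a log axis of the mitochondrial (orange) and cytosolic (blue) synthetase gene of 14 amino acids, with circles for heph2 and squares for the control, joined within a library by a grey line (1 library each, no error bars). The cytosolic gene is the higher in 11 of 14 in each library, and cysteine, tryptophan and valine are the exceptions.

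Genes that work with the synthetases were read from lists. The 3 scaffold genes of the multisynthetase complex were higher in heph2 in the deposited FPKM, with log2 ratios of 0.08 to 0.24. All 3 were lower when scaled on mapped reads, on ribosomal protein genes or to TPM, as were 74.4% to 85.0% of all genes. AIMP1 (CG8235) had 29.1 FPKM in heph2 against 24.7 FPKM in the control, and AIMP2 (CG12304) had 63.2 FPKM in heph2 against 58.7 FPKM in the control. AIMP3 (CG30185) had 53.1 FPKM in heph2 against 50.3 FPKM in the control. Against genes matched on length and level the median of the 3 was -0.17. The genes gatA and gatB, which encode subunits of the mitochondrial enzyme that makes glutaminyl-tRNA from glutamyl-tRNA, had 9.51 and 9.61 FPKM in heph2 against 9.25 and 9.29 FPKM in the control.

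The elongation factors bring charged tRNA to the ribosome and move it along. Of 6 cytosolic factors, 2 were higher and 4 lower in heph2 in the deposited FPKM, with a median log2 ratio of -0.10, and none reached 1.5-fold. All 6 were lower when scaled on mapped reads, on ribosomal protein genes or to TPM, as were 74.4% to 85.0% of all genes. The lowest ratios were -0.21 for EF2, the translocation factor, and -0.13 for Ef1gamma. The highest were 0.19 for eEF1delta and 0.17 for Ef1beta, both subunits of the exchange factor. Ef1alpha48D had no known length. Against genes matched on length and level, the other cytosolic factors were all below 0, with a median of -0.26. On that scale eEF1delta at -0.28 and Ef1beta at -0.30 were the lowest of them. The 4 mitochondrial factors found were higher in the deposited FPKM, where 51.5% of all genes were. Their median was 0.23, with ratios of 0.35 for mEFTu2, 0.30 for mEFTs, 0.16 for mEFTu1 and 0.11 for mEFG1. Of the 4, 2 were lower when scaled on mapped reads or to TPM and all 4 when centred on ribosomal protein genes. Against genes matched on length and level the median was 0.12, without mEFG1, whose length was not known.

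Gcn2 encodes the kinase that senses uncharged tRNA, and among the scaffold, amidotransferase, elongation factor and amino acid response genes it was the only one that differed by at least 1.5-fold in the deposited FPKM. It had 1.56 FPKM in heph2 against 3.12 FPKM in the control, a log2 ratio of -0.996, from an estimated 239 reads in heph2 and 738 reads in the control. Its locus entry on 3R, 27221380 to 27283499, is shared by 3 genes and lies near that of heph, which starts at 27676704 on the same arm. Against genes matched on length and level its ratio was -0.61. The heph2 allele and the rest of its chromosome, which is paired with TM3 in the control, cannot be told apart in this difference. The other genes of the list, crc (the fly ATF4), PEK (the endoplasmic reticulum stress kinase) and Thor (the 4E-BP translation repressor), had ratios of -0.10, -0.21 and 0.18.

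Several values describe the libraries as wholes. heph itself had 27.2 FPKM in heph2 against 44.0 FPKM in the control, or 61.8% of the control level. This whole-gene value does not show how much full-length heph mRNA was left. The paper reports that nearly all heph transcripts were truncated in heph2 homozygotes, with very little full-length mRNA remaining. Summed markers of testis were 9224 FPKM in heph2 against 6055 FPKM in the control, and all 8 testis markers and all 8 accessory gland markers were found in both libraries. Of the 8 testis markers, 7 were higher in heph2 and betaTub85D was lower, where 51.5% of all genes were higher. Their median log2 ratio was 0.63, but 0.19 against genes matched on length and level. Summed accessory gland markers were 7444 FPKM in heph2 against 12639 FPKM in the control, flight muscle markers 17946 FPKM in heph2 against 6317 FPKM in the control, and heat stress genes 2407 FPKM in heph2 against 776 FPKM in the control. The flight muscle log2 ratios ran from 0.51 for Mhc to 2.68 for fln. Act88F, TpnC4 and Hsp70Bc of these lists were already reported by the paper as higher in the same libraries. Yolk, chorion and vitelline membrane genes, which mark female tissue, summed to 29.4 FPKM in heph2 against 327 FPKM in the control, with 11 of 12 compared lower by at least 1.5-fold. The roX RNAs, which are made in males, summed to 95.2 FPKM in heph2 against 114.7 FPKM in the control. The control library labelled male thus carries its male marker and holds more of the female tissue transcripts than the heph2 library. In RNA of whole flies, fewer cells of a type and less RNA per cell cannot be told apart, and the part that these differences in tissue markers play in the ratios of the Aats- genes was not tested.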

How the data were processed

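Single reads, 50 bases long, were mapped by the authors with TopHat2 2.0.4 to FlyBase r5.44 and passed to Cufflinks 2.0.0, and the deposited table gives each gene an FPKM for either library, log2 ratios and a locus. The authors' log2 ratios were not used. Reads as such were not analysed here. Depth was estimated from the low FPKM values, where 1 read on 1 kilobase was worth 0.0333 FPKM in heph2 and 0.0215 FPKM in the control, and 62.6% of the low genes in each library lay within 0.1 read of whole numbers. Reads per gene used this step, the median transcript length in BDGP6 (Ensembl release 115), known for 95.3% of the genes compared, and fragments of 200 ± 80 bases, an assumed size. The table counts starts from 0, so 1 was added.

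Python 3.11.15, numpy 2.4.6, pandas 2.3.3 and scipy 1.17.1 were used. The ratio was taken without a pseudocount. Similar genes were those in the same of 50 bins, made of 10 length bins with 5 level bins each. Of the 21 genes, 20 matched the current annotation by identifier and Aats-phe by synonym. Gene lists and members were chosen with earlier results of these data known. All Aats- genes are named, and of other lists the 2 highest and 2 lowest ratios and those past 1.5-fold. The cytosolic phenylalanine subunits, Slimp, CysRS-m and all 3 AIMP genes were named after their values were seen. Of the lists, gatC and mEFG2 were not found. The estimates of depth and ratios were tested on simulated reads drawn with the same transcript lengths and estimated steps. Such data cannot test errors in the lengths or in the assumed fragment size. Motifs in proteins and promoters were not analysed here. With 1 library per genotype no test was made. Alternatives changed the pseudocount, the minimum FPKM, the scaling, the correction for length and the use of shared loci.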

Additional observations from a re-analysis of the deposited data

How the results depend on the processing

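No paired analysis was possible because each genotype had 1 library, and for the same reason no library could be left out. A pseudocount of 0.1 or 1, a minimum mean FPKM of 5 and centring on the median of all genes moved the medians of the Aats- genes and of both compartments by less than 0.1 in log2, and left the counts at 1.5-fold and 2-fold at 0. At a minimum of 5, however, 2 mitochondrial members remained, 1 of them lower in heph2, and the median on chromosome 3 was -0.26. No Aats- gene reached 2-fold under any alternative. Scalings that shift all genes moved most values. Centred on 85 ribosomal protein genes (shift -0.44), the median log2 ratio was -0.59 for the Aats- genes, -0.57 for mitochondrial and -0.61 for cytosolic members, -0.54 for the other synthetases and -0.43 for all genes, and 11 Aats- genes reached 1.5-fold, as did 4299 of all genes (35.9%), with 1044 at 2-fold against 626 in the deposited units. Scaled on mapped reads (shift -0.28), the medians in the same order were -0.42, -0.40, -0.45, -0.37 and -0.27, with 5 of 21 Aats- genes at 1.5-fold, where 23.4% of all genes were. Rescaled to TPM (shift -0.28), an alternative chosen after seeing the data, they were -0.43, -0.41, -0.46, -0.38 and -0.27, again with 5 of 21, against 23.6% of all genes. The Aats- median minus that of all genes was -0.16 in each of these. Of the genes at 2-fold, 53.4% were higher in heph2 in the deposited units, 9.96% with ribosomal protein centring, 22.2% on mapped reads, 21.8% in TPM and 35.9% against genes matched on length and level. On that matched scale the mitochondrial median was 0.031. At a minimum of 10 FPKM the mitochondrial median was 0.20, from Aats-phe alone, and the mitochondrial minus cytosolic difference 0.36, while all genes had a median of 0.12 with 382 at 2-fold and 1209 at 1.5-fold (1964 in the deposited units). With no minimum, 1035 genes reached 2-fold. Among genes alone in their locus the mitochondrial median was 0.078, the difference 0.22 and the median of the other synthetases -0.23. Which scaling is nearest to RNA per fly was not tested. Mitochondrial members other than Aats-phe rest on the fewest reads, 178 to 362 in heph2 and 299 to 749 in the control.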
